A study of Mus musculus with 16 samples.

Results

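The 6 genes described here, Mir1a-1, Mir1a-2, Mir133a-1, Mir133a-2, Mir133b and Mir206, encode the microRNAs that mark striated muscle and were taken as a group for that reason, out of 2202 microRNA genes in the mouse GENCODE M21 annotation. They lie in 3 pairs: Mir206 with Mir133b, Mir1a-1 with Mir133a-2, and Mir133a-1 with Mir1a-2. Accessible chromatin was mapped by ATAC-seq, where Tn5 transposase cuts exposed DNA and adds adapters, and all peaks called within 50 kb of either gene body of a pair were collected. The 14 libraries compared held 75 such peaks, of 549808 peaks in all, and these merged into 17 regions of 80290. Libraries came from C2C12 iMyoD1, a polyclonal population of mouse C2C12 skeletal muscle myoblasts with its endogenous MyoD1 intact and an added doxycycline-inducible Halo-MyoD1 transgene under the TRE3GS promoter. All 4 groups carried the transgene. GM no dox and GM +dox cells stayed in growth medium and were seeded at 75000 per well, whereas DM no dox and DM +dox cells were seeded at 300000 per well and deprived of serum for 24 h to start differentiation. The +dox groups received doxycycline for 24 h and the no dox groups did not. Each group had 4 libraries, and medium and seeding density changed together and cannot be told apart. DM replicate 1 of either dox arm, an outlier in the authors' quality control, was left out. That gave 4 libraries in each GM group and 3 in each DM group.

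In the canonical pathway a primary transcript folds into hairpins that Drosha and Dgcr8 excise in the nucleus, Xpo5 exports and Dicer1 trims to the mature strand, which guides an Argonaute protein to transcripts that match its seed. The miR-1 and miR-206 family and the miR-133 family are transcribed from shared primary transcripts, 1 member of each family per pair. MyoD1 is a basic helix-loop-helix transcription factor that binds E-boxes, and Mir206 and Mir133b are well known as muscle genes that depend on myogenic factors. The 3p strands of miR-1 and miR-206 share their seed, and this family is known for promoting myoblast differentiation and miR-133 for supporting myoblast proliferation. The comparisons here asked whether elevated MyoD1, or the change to differentiation medium, altered which sites around these genes were called accessible.

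Among the 14 libraries the deposited lists held up to 58587 peaks, the shortest being that of GM no dox replicate 1, and the genome-wide background recovered from them was 0.316 to 1.13 fragments per base. The lists were mostly longer with doxycycline, at 36531 to 58587 peaks in GM +dox and 46241 to 51340 in DM +dox against at most 49300 in GM no dox and 23690 to 40599 in DM no dox, so each count was also made in equally many peaks of every list, the strongest by p-value, as many as the shortest list held. The libraries left out held 1287 and 14236 peaks. Of 8 myoblast genes, Myod1, Chrna1 and Cdh2 had a peak within 1 kb of a start site in 14 of 14 libraries. Des had one in 13, Cdh15 in 10, Pax7 in 9, Myf5 in 6 and Myf6 in 3. Of 8 genes that mark other cell types, 7 had no such peak in any library, and Pecam1, an endothelial gene, had one in 8 libraries, none of them among the strongest. The myoblast genes Des, Pax7, Myf5 and Myf6 likewise had none among the strongest. An ATAC-seq library pools many nuclei, so a weaker peak from fewer open nuclei and one from less open nuclei cannot be told apart.

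The RefSeq table of build GRCm38 held sequences for 3 of the 6 members, both mature strands of Mir206 and Mir133b and the 5p strand of Mir1a-1. miR-1a-3p, Mir1a-2, Mir133a-1 and Mir133a-2 are not shown. They are shown because the 2 hairpins of the first pair sit beside the most accessible region described below. The mature strands follow, 5′ to 3′, with the seed, bases 2 to 8, in capitals. Of the 5 strands shown, miR-206-5p and miR-1a-1-5p were nearest to each other, with the same letter at 20 of 23 positions and at 6 positions of the seed.
mmu-miR-206-5p: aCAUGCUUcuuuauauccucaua
mmu-miR-206-3p: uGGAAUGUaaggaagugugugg
mmu-miR-133b-5p: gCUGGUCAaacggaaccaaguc
mmu-miR-133b-3p: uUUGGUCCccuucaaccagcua
mmu-miR-1a-1-5p: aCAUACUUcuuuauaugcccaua

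In the hairpins, capitals mark the 2 mature strands that each one gives.
Mir206 hairpin, chr1:20679010-20679082, plus strand: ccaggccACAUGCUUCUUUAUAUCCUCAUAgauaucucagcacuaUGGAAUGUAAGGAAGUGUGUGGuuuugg
Mir133b hairpin, chr1:20682769-20682887, plus strand: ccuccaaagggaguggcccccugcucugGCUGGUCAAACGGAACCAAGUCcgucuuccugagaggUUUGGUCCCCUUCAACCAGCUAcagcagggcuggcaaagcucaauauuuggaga

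Regions are named by the distance from the summit of their strongest peak to the nearest hairpin. The DNA around 3 regions near Mir206 and Mir133b is shown because the peaks of the pair lie there. That of 1 region near Mir1a-1 is shown because every GM +dox library and no other held a peak in it. Each stretch is 300 bases from the GRCm38 genome, centred on the summit. Capitals mark every E-box, the letters CANNTG.
11.3 kb upstream of Mir206, chr1:20667580-20667879, plus strand: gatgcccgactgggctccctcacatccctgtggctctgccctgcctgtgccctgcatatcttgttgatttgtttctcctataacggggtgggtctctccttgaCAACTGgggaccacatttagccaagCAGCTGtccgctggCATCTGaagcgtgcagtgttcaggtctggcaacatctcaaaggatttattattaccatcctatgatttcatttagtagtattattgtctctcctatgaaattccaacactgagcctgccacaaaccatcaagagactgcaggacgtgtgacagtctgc
835 bp upstream of Mir206, chr1:20678025-20678324, plus strand: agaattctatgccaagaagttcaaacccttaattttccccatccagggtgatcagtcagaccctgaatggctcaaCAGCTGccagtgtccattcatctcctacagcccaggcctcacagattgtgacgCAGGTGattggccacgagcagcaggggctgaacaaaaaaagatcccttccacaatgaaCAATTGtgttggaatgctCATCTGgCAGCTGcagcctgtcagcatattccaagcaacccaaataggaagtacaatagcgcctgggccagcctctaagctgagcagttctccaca
8.6 kb downstream of Mir133b, chr1:20691346-20691645, plus strand: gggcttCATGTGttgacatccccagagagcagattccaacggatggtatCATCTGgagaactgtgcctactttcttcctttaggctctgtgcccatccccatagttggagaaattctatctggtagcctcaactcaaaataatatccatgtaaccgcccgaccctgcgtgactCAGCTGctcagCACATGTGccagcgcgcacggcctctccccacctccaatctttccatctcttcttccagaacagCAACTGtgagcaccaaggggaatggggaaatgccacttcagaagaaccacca
19.6 kb upstream of Mir1a-1, chr2:180369261-180369560, plus strand: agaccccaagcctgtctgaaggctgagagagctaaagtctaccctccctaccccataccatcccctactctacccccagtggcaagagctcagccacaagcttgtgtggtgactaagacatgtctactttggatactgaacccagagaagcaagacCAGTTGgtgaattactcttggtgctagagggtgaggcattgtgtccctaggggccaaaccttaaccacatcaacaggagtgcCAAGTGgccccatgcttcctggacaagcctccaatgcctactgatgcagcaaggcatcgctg

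The site 835 bp upstream of Mir206 was the most accessible of the 17 regions. Mir206 (chr1:20679010-20679082, plus strand, mm10) and Mir133b (chr1:20682769-20682887, plus strand) both lie inside the long noncoding RNA gene Gm28653, listed by RefSeq as Lincmd1, at chr1:20669882-20684298. The upstream region covered chr1:20677966-20678328, with its summit at 20678175 in intron 2 of the 3-exon transcript of that gene. A peak was called there in 12 of 14 libraries, namely 3 of 4 no dox and 4 of 4 +dox libraries in GM, and 2 of 3 no dox and 3 of 3 +dox libraries in DM. Regions with peaks in at least 12 libraries made up 26.4% of all regions. The 2 libraries without the peak were GM no dox replicate 1, whose list was the shortest, and DM no dox replicate 2, with 23690 peaks, and the shortest list with the peak held 23078.

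Fold enrichment, which is the fragment pileup at the summit over the local background with 1 added to each, ranged from 8.85 to 25.7 at this site. In GM no dox it was 14.9, 8.85 and 15.7 in replicates 2 to 4, and in GM +dox it was 25.3, 19.0, 15.4 and 14.5 in replicates 1 to 4. The GM groups overlapped. In DM no dox it was 11.5 and 12.5 in replicates 3 and 4, and in DM +dox it was 25.7, 19.5 and 18.6 in replicates 2 to 4. Every DM +dox value lay above both DM no dox values, but no test applied because the remaining DM no dox library held no peak. Of the 18106 regions with a peak in every DM library compared, 48.3% were higher in DM +dox without overlap.

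By p-value the peak ranked from 1173 of 58587 in GM +dox replicate 1 to 14929 of 40599 in DM no dox replicate 4. It was among the strongest peaks of 11 libraries, 3 no dox and 4 +dox in GM and 1 no dox and 3 +dox in DM, and DM no dox replicate 4 fell just outside that limit. The pileup at the summit was 21 to 142 fragments. Differentiation in the presence of doxycycline could be tested, since all 7 libraries held the peak. Its log2 fold enrichment was 4.39 ± 0.25 (SD, n = 3) in DM +dox and 4.18 ± 0.36 (SD, n = 4) in GM +dox, a difference of 0.22 against a median of 0.20 over all 27426 regions shared by these libraries (exact permutation test, two-sided, p = 0.429, Benjamini-Hochberg adjusted p = 0.679).

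**Figure D1:**
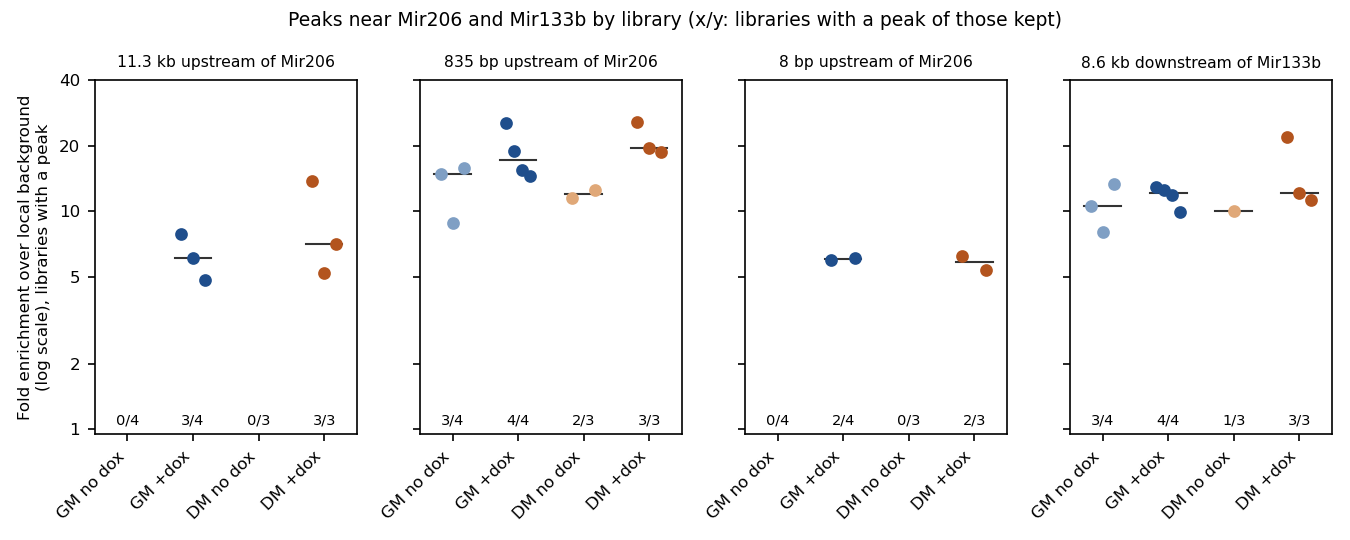
Fold enrichment over local background (log axis) at the 4 regions near Mir206 and Mir133b, by group. Points are the kept libraries with a peak, horizontal lines are medians, and the fractions at the bottom give libraries with a peak of those in the group. Enrichment 835 bp upstream of Mir206 ran from 8.85 to 25.7, and the regions 11.3 kb and 8 bp upstream had peaks in +dox libraries only.

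The region 8.6 kb downstream of Mir133b, at chr1:20691316-20691819 and outside any annotated gene, was the other site of the pair found in most libraries. Peaks were called in 3 of 4 no dox and 4 of 4 +dox libraries in GM, and in 1 of 3 and 3 of 3 in DM. Fold enrichment was 10.6, 8.03 and 13.3 in GM no dox replicates 2 to 4 and 12.9, 12.5, 11.9 and 9.89 in GM +dox replicates 1 to 4. It was 9.99 in DM no dox replicate 4 and 21.8, 12.1 and 11.3 in DM +dox replicates 2 to 4. The GM groups overlapped, and the single DM no dox value was the lowest of the DM values. The share of all regions with that order was not counted. Only GM no dox replicate 3 and DM +dox replicate 2 had it among their strongest peaks. With doxycycline the log2 fold enrichment was 3.85 ± 0.52 (SD, n = 3) in DM and 3.55 ± 0.17 (SD, n = 4) in GM, a difference of 0.30 (exact permutation test, p = 0.429, adjusted p = 0.679). Neither this region nor the one 835 bp upstream of Mir206 separated DM +dox from GM +dox without overlap, where 17.8% of the shared regions did. No shared region passed the adjusted threshold of 0.05 in that exact permutation test, and 2419 had an unadjusted p below it.

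A weaker region 11.3 kb upstream of Mir206, at chr1:20667597-20667967 and 2.15 kb before the start of Gm28653, had peaks in no no dox library, as did 6.54% of all regions held by 6 libraries. It was called in 3 of 4 GM +dox libraries, with fold enrichment of 7.90, 6.09 and 4.84 in replicates 1, 2 and 4, and in 3 of 3 DM +dox libraries, with 13.7, 5.20 and 7.05. In DM it was therefore present in every +dox library and in no no dox library, as were 5.37% of the regions with a peak in either DM group. GM no dox replicate 4, with 49300 peaks, and DM no dox replicate 4, with 40599, lacked the peak. The shortest list with it, that of GM +dox replicate 4, held 36531. GM +dox replicate 3 lacked it in a list of 45087. Whether list length or depth bears on these calls was not tested. None of these peaks was among the strongest of its library, the best rank being 23710 of 51340 in DM +dox replicate 2. With the left-out libraries included the split in DM was lost, since DM +dox replicate 1 held no peak there.

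The fourth region of the pair, at chr1:20678914-20679135, had its summit 8 bp before the first base of the Mir206 hairpin, and a single-exon transcript of Gm28653 starts inside that hairpin at 20679023. Peaks were called in GM +dox replicates 2 and 3, with fold enrichment of 5.96 and 6.08, and in DM +dox replicates 2 and 3, with 6.25 and 5.39. None was called in a no dox library, as for 25.6% of all regions held by 4 libraries, and none ranked above 28306 in its list. The start of the long Gm28653 transcript had no peak within 1 kb in any library, whereas the start of the single-exon transcript had one in 12, from the region 835 bp upstream.

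**Figure D2:**
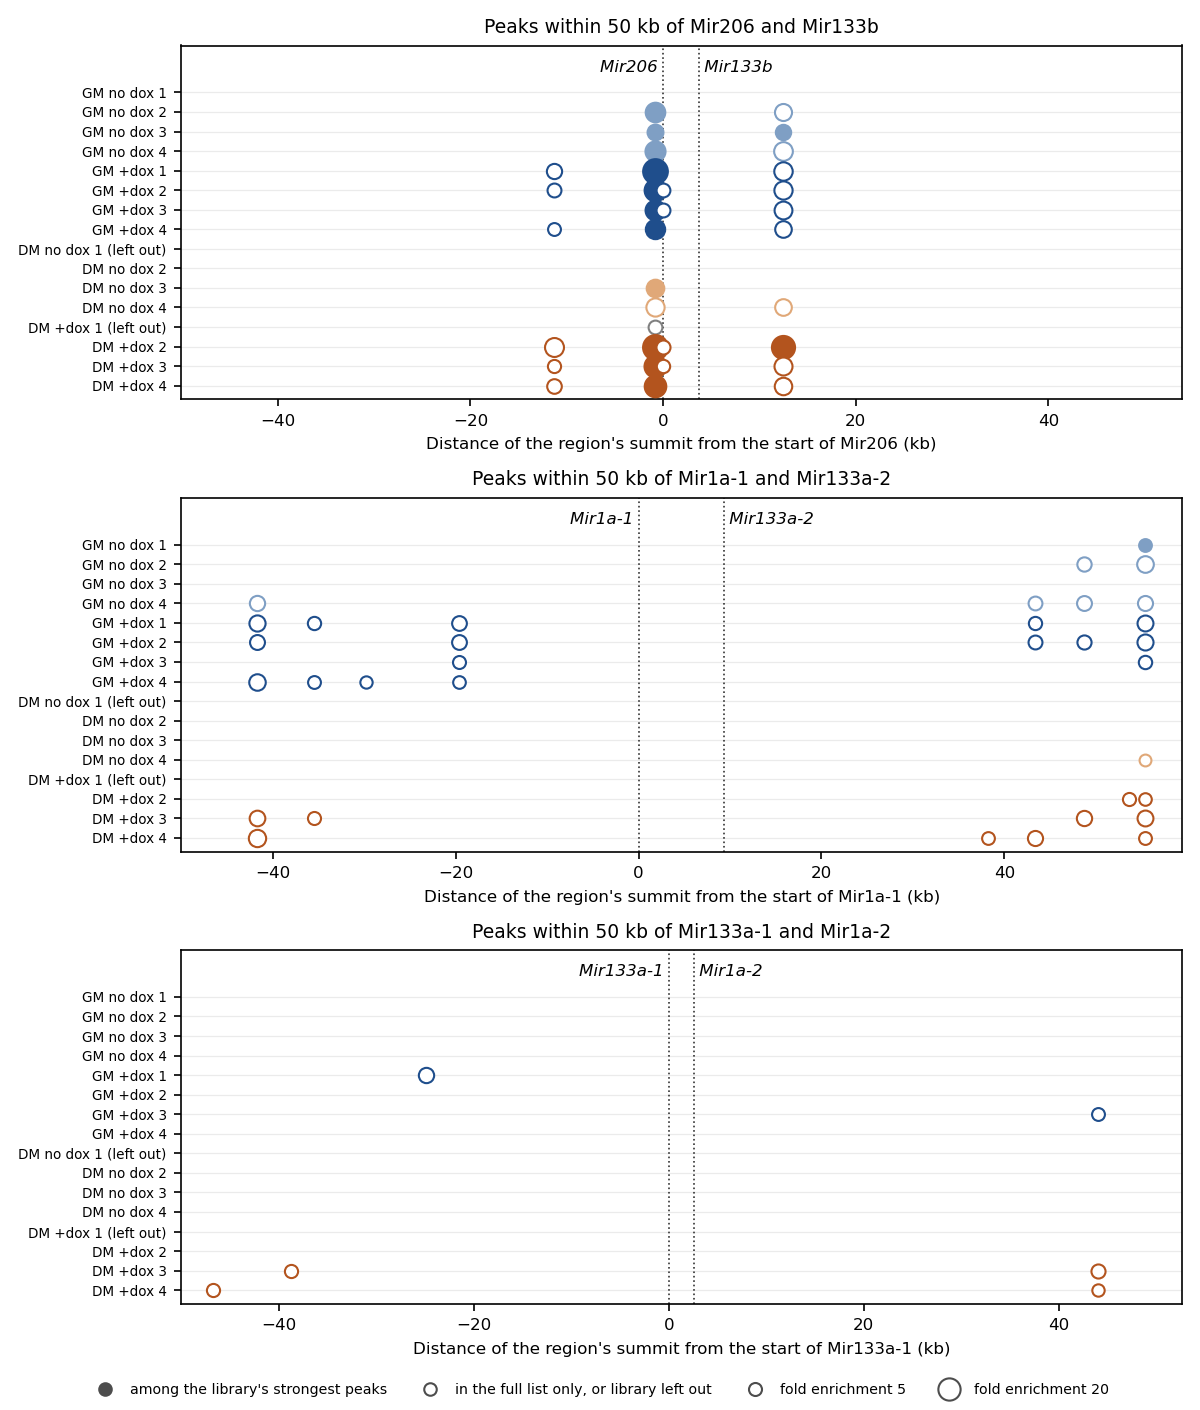
Peaks by library (rows) at their distance in kb from the first hairpin of each pair (x axis), for all 16 libraries. Dotted lines mark the starts of the hairpins, point area grows with fold enrichment, filled points were among the strongest peaks of a kept library, and grey points belong to a library left out. Peaks of the first pair lay between 11.3 kb upstream of Mir206 and 8.6 kb downstream of Mir133b, and no peak was nearer than 19.6 kb to the other pairs.

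Around Mir206 and Mir133b the number of peaks per library was higher with doxycycline in the full lists. GM no dox libraries held 0, 2, 2 and 2 peaks and GM +dox libraries 3, 4, 3 and 3, with means of 1.5 ± 1.00 (SD, n = 4) and 3.25 ± 0.50 (SD, n = 4). The groups did not overlap, but the difference of 1.75 failed the correction over 1639 microRNA windows (exact permutation test, two-sided, p = 0.0286, the smallest this design allows; adjusted p = 0.716). Windows that were higher with doxycycline in GM without overlap made up 1.95% of all, with a median difference of 1 peak. DM no dox libraries held 0, 1 and 2 peaks and DM +dox libraries 4, 4 and 3, with means of 1.00 ± 1.00 (SD, n = 3) and 3.67 ± 0.58 (SD, n = 3), again without overlap. The design cannot go below p = 0.1, which this difference of 2.67 reached (exact permutation test, adjusted p = 0.452), and 22.1% of windows were higher in DM +dox without overlap, with a median difference of 1.33.

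In the equal-length lists of strongest peaks these differences were not seen in GM. GM no dox libraries held 0, 1, 2 and 1 peaks and each GM +dox library 1, so both means were 1. DM no dox libraries held 0, 1 and 0 and DM +dox libraries 2, 1 and 1, a difference of 1 that overlapped between groups (exact permutation test, p = 0.3, adjusted p = 1). In lists of this length 0.309% of windows were higher with doxycycline in GM and 1.83% in DM without overlap. The difference made by doxycycline did not differ detectably between DM and GM, at 0.92 peaks in the full lists (exact permutation test with medium permuted within each dox arm, p = 0.316) and 1 peak in the strongest (p = 0.188). Across media, DM minus GM was −0.50 peaks without and 0.42 with doxycycline in the full lists (exact permutation test, p = 0.657 and p = 0.486), and −0.67 and 0.33 in the strongest (p = 0.371 and p = 0.429), each with an adjusted p of 1.

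Within replicate numbers, the doxycycline difference in the full lists was 2.50 peaks in GM for replicates 1 and 2 and 1 for replicates 3 and 4, and in DM 4 for replicate 2, with 1 library in each arm, and 2 for replicates 3 and 4. With all 16 libraries the DM difference was 2.25 peaks.

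**Figure D3:**
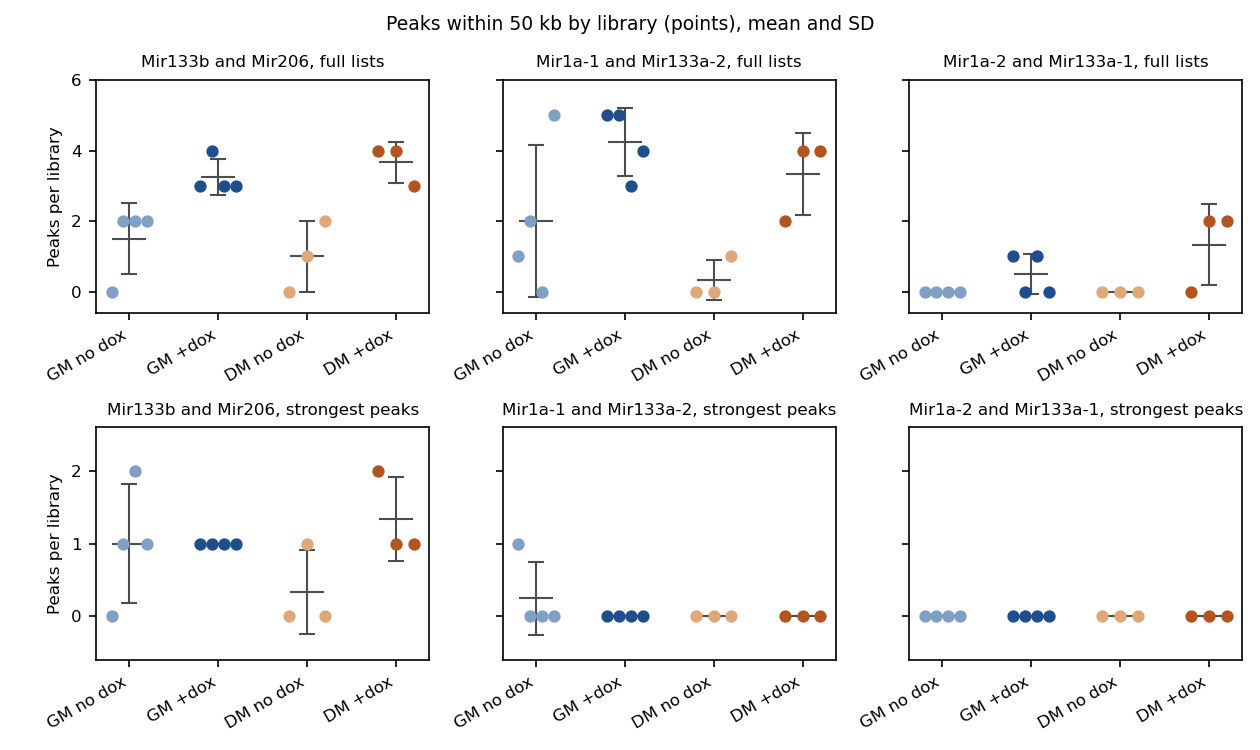
Peaks per library within 50 kb of each pair, in the full lists (top) and in the strongest peaks (bottom), by group. Points are kept libraries and bars are means and SD. The full-list counts near Mir206 and Mir133b did not overlap between dox arms in either medium, and in the strongest peaks every GM +dox library held 1.

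Mir1a-1 (chr2:180389048-180389124, plus strand) and Mir133a-2 (chr2:180398379-180398482, plus strand) lie in the RefSeq host gene Mir1a-1hg, and the noncoding gene B230312C02Rik starts beside the start of that host and runs away from them on the other strand. No peak was called within 1 kb of the start of either gene in any library, and the 9 regions of the pair lay 19.6 to 46.0 kb from the nearest hairpin, all outside annotated genes. In the full lists GM no dox libraries held 1, 2, 0 and 5 peaks and GM +dox libraries 5, 5, 3 and 4, a difference of 2.25 between groups that overlapped (exact permutation test, p = 0.171, adjusted p = 0.716). DM no dox libraries held 0, 0 and 1 and DM +dox libraries 2, 4 and 4, a difference of 3 without overlap (exact permutation test, p = 0.1, adjusted p = 0.452) beside the 22.1% of windows that did the same. In the strongest peaks the 14 libraries held 1 peak in all, in GM no dox replicate 1.

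The region 19.6 kb upstream of Mir1a-1, at chr2:180369310-180369580 and 1.08 kb past the 3′ end of B230312C02Rik, was called in 4 of 4 GM +dox libraries and in none of the other 10. Its fold enrichment was 7.21, 7.29, 4.96 and 4.61 in replicates 1 to 4, on pileups of 9, 11, 9 and 9 fragments. Of the regions with a peak in either GM group, 0.446% were held by all +dox libraries and by none without doxycycline. Of those with a peak in either +dox group, 0.319% were present in every GM library and no DM library, as this one was. The DM +dox lists that lacked it held 46241 to 51340 peaks, and the shortest GM +dox list with it 36531. The peaks ranked from 34270 of 36531 in replicate 4 to 40622 of 58587 in replicate 1, and were absent from the strongest peaks. The lowest pileup of any called peak was 4 to 6 fragments in each of the 14 libraries. Whether a signal of 9 to 11 fragments would have been called at this place in the other libraries was not tested.

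The region 46.0 kb downstream of Mir133a-2, at chr2:180443813-180444625, was the most frequent of the pair, with peaks in 3 of 4 no dox and 3 of 4 +dox libraries in GM, and in 1 of 3 and 3 of 3 in DM. Its fold enrichment was 3.66 to 9.99, with a median of 6.54. The region 41.8 kb upstream of Mir1a-1 was called in 6 libraries, 1 GM no dox, 3 GM +dox and 2 DM +dox, with fold enrichment of 7.44 to 11.03. The region 33.98 kb downstream of Mir133a-2 was called in 1 GM no dox library, with fold enrichment of 6, in 2 GM +dox libraries, with 5.30 and 6.09, and in 1 DM +dox library, with 7.74. That 35.5 kb upstream of Mir1a-1 was called in 2 GM +dox libraries, with 5.32 and 4.80, and in 1 DM +dox library, with 5.04. The 4 regions not yet named were called in 1 to 4 libraries each, with fold enrichment from 4.17 to 7.94.

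**Figure D4:**
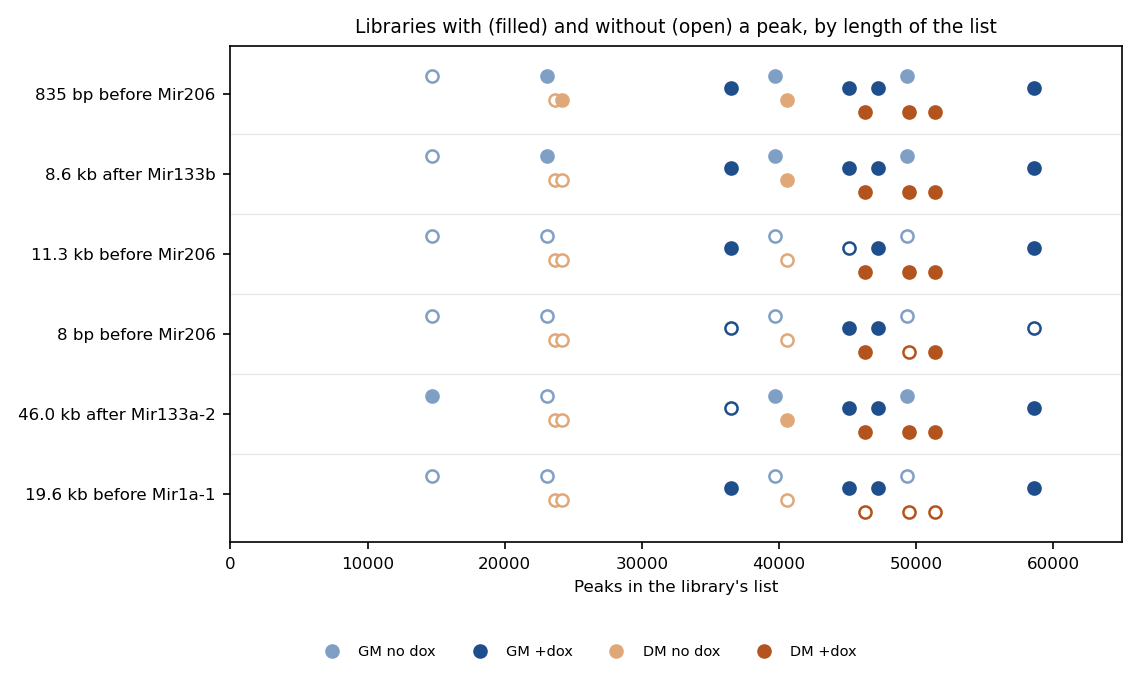
Kept libraries with a peak (filled) and without one (open) at 6 regions (rows), against the number of peaks in the library's list (x axis), coloured by group. The region 835 bp before Mir206 was absent from 2 of the shorter lists, and that 19.6 kb before Mir1a-1 was absent from DM +dox lists of 46241 to 51340.

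Mir133a-1 and Mir1a-2 had the fewest peaks of the 3 pairs. They lie on the minus strand of chromosome 18, at 10782909-10782976 and 10785481-10785552, inside Mib1, a gene for a ubiquitin ligase of the Notch pathway, and antisense to it. Mir1b overlaps Mir1a-2 on the other strand. In the full lists the pair had 6 peaks in 4 regions, all in +dox libraries. Lists were mostly longer with doxycycline, and of all regions held by a single library 75.0% were in a +dox library, as were 41.3% of those held by 3 libraries, the numbers of libraries that held these 4. GM +dox libraries held 1, 0, 1 and 0 and DM +dox libraries 0, 2 and 2, against 0 in all 7 no dox libraries. Neither difference passed a test, at 0.50 peaks in GM and 1.33 in DM (exact permutation test, p = 0.429 and p = 0.4, adjusted p = 0.731 and p = 0.596). The 3 regions in introns of Mib1, 24.9 to 46.8 kb from Mir133a-1, were called in 1 library each, with fold enrichment of 5.17 to 7.99. A region 41.4 kb beyond Mir1a-2, past the end of Mib1, was called in GM +dox replicate 3, with fold enrichment of 4.82, and in DM +dox replicates 3 and 4, with 6.35 and 4.23. None of the 6 peaks was among the strongest of its library. The start of Mib1, which lies outside the window, had a peak in 14 of 14 libraries, also among the strongest, whereas neither annotated start of Mir133a-1hg, the host on the minus strand, had one in any.

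In the strongest peaks no member region was held by all libraries of a group and by none of the group compared. Such regions, in either direction, made up 0.287% of those tested for doxycycline in GM, 1.61% for doxycycline in DM, 2.03% for differentiation without doxycycline and 2.21% with it. Over all microRNA windows the mean number of peaks per library had a median of 1.79 in the full lists. Mir206 with Mir133b had 2.36, above 55.8% of windows, Mir1a-1 with Mir133a-2 had 2.57, above 57.8%, and Mir133a-1 with Mir1a-2 had 0.429, above 30.3%. In the strongest peaks the means were 0.929, 0.0714 and 0 against a median of 0.5. Mir206 with Mir133b stayed above 55.5% of windows and Mir1a-1 with Mir133a-2 above 39.5%.

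E-boxes were read within 150 bases of each summit, on both strands. The letters CAGCTG, which MyoD1 favours, were present in 7 of the 17 regions and in 25.6% of all regions. The region 835 bp upstream of Mir206 held 2 CAGCTG matches among 5 E-boxes, at 75 bases before and 61 bases after the summit. Those 11.3 kb upstream of Mir206 and 8.6 kb downstream of Mir133b held 1 each, among 3 and 6 E-boxes, and 2 of the latter overlap. The region 19.6 kb upstream of Mir1a-1 held 2 E-boxes and no CAGCTG. The general E-box CANNTG, of which those letters are 1 form, was present in 14 of 17 regions and in 80.4% of all. The AP-1 letters TGANTCA were present in 2 of 17 and in 35.7% of all, the TEAD letters CATTCC in 5 and in 23.0%, and a MEF2 motif, CTA and TAG with 4 bases between, in 1, the region 46.0 kb downstream of Mir133a-2, and in 4.17%.

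Other microRNAs of muscle or myoblasts were counted in windows of the same kind, 28 of 30 listed names being found. In the full lists 4 of them, Mir199a-2 and Mir214 in a shared cluster and Mir29a and Mir29b-1 in another, were higher in DM +dox than in DM no dox without overlap, of 26 with a peak and beside the 22.1% of all windows. For Mir199a-2 the means were 5.00 ± 1.00 and 2.33 ± 0.58 peaks (SD, n = 3 each). For Mir29a they were 15.7 ± 0.58 and 10.3 ± 1.53 (SD, n = 3 each). None of the 28 was higher or lower with doxycycline in GM without overlap. In the strongest peaks only Mir208a, a cardiac microRNA inside the myosin gene Myh6, separated groups. It had 1 peak in every DM no dox library and none in any DM +dox or GM no dox library, where 0.794% of windows were lower with doxycycline in DM and 1.09% higher with differentiation without doxycycline. Peaks of its window were also held in GM +dox, since the mean over the 14 libraries was 0.357.

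Of 18 genes that earlier work names as targets of these microRNAs, all had peaks within 50 kb. In the full lists 4 were higher in DM +dox without overlap, beside 29.0% of all protein-coding windows, and none in GM. They were Pax7, a satellite cell transcription factor, with 14 ± 3 against 6.33 ± 3.21 peaks, Igf1r, the IGF-1 receptor, with 13.3 ± 0.58 against 7 ± 3.61, Tagln2, an actin-binding protein, and Pola1, a DNA polymerase subunit (SD, n = 3 each). The median difference of the list was 2.83 peaks against 1.67 over all such windows. Counts were not scaled to the length of a window or to its number of peaks. Of the 6 processing genes, Drosha, Dicer1 and Ago2 were higher in DM +dox without overlap, beside the same 29.0% of all protein-coding windows. Their windows held 2.00 ± 0 against 1.00 ± 0 peaks for Drosha, 2.67 ± 1.15 against 1.00 ± 0 for Dicer1 and 10 ± 1.73 against 3.33 ± 0.58 for Ago2 (SD, n = 3 each), and the list's median difference of 1.33 was below that of all windows. In the strongest peaks no target or processing gene separated the dox arms in either medium.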

How the data were processed

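The study compared ATAC-seq libraries of 4 groups. The authors aligned reads to mm10 and called peaks in each library with nf-core/atacseq, whose tools include MACS2 and deepTools per the labels (versions not given in the sources used here), and removed blacklisted regions. The deposited peak lists give fold enrichment at each summit, a ratio to the local background of the same library, and the −log10 p-value and −log10 q-value of each peak. Read totals were not given, so depth was read from the fragment pileup recovered from fold enrichment and p-value. All 120 pairs of lists differed.

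Peaks overlapping a gene body plus 50 kb by at least 1 bp were counted per library, in the full lists and in the 14710 strongest ranked by −log10 p, as many as the shortest kept list held. Overlapping peaks were merged into regions. A region was called all-or-none when every library of one group and none of the other had it. Groups were compared with two-sided exact permutation tests, with Benjamini-Hochberg adjustment over all microRNA windows or shared regions and a threshold of 0.05. The smallest p was 0.0286 for 4 libraries against 4 or 3 and 0.1 for 3 against 3, so p-values for doxycycline in DM could not pass. In the other comparisons no window could pass adjustment on its own, since the smallest p passes only when very many windows reach it. For doxycycline in GM, 32 of 1639 windows in the full lists had an unadjusted p below 0.05. The tests were tested on simulated data. Python 3.11.15, numpy 2.4.6, pandas 2.3.3, scipy 1.17.1 and matplotlib 3.10.9 were used.

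The labels call libraries biological replicates with shared numbers. Same-numbered libraries deviated together over 11046 regions, with correlations of 0.167 to 0.276 for doxycycline in GM, 0.190 to 0.364 in DM and 0.191 to 0.463 for differentiation with doxycycline, whereas 1 pair fell to 0.0976 without it. The members and gene lists were chosen with earlier results of these data known. Regions described library by library were, per pair, the 3 nearest to a hairpin with peaks in at least 2 libraries and any that split or separated groups, and of the gene lists those members whose groups did not overlap. Other lists, windows and library choices were tried as alternatives.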

Additional observations from a re-analysis of the deposited data

Results flagged for a closer look

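Among 10 groups of 4 libraries checked for a sample far from the others, 3 had one. Each of the 3 held 3 tied counts, which fixes the ratio of gap to range at 1, so the chance rate of about 1 in 20 for continuous values does not apply. GM no dox replicate 1 held 0 peaks around Mir206 and Mir133b in its full list, against 2 in each other library of the group. GM +dox replicate 2 held 4 there, against 3 in each other library. GM no dox replicate 1 held 1 peak around Mir1a-1 and Mir133a-2 among the strongest, against 0 in the others, and its list was the shortest. The DM +dox library left out of all comparisons, replicate 1, had a peak 835 bp upstream of Mir206 with fold enrichment of 5.95 on a pileup of 6 fragments, at rank 6213 of 14236.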

How the results depend on the processing

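Of 644 alternative values for 48 results, 582 were classed as kept, 56 as moved and 6 as reversed. A kept value could still differ in size. Around Mir206 and Mir133b, for example, the doxycycline difference in DM was 1 in the strongest peaks and 2.67 in the full lists. No alternative gave an adjusted p below 0.219. The cause of each change was not tested, apart from the longer lists that some use by construction. Where libraries were left out or subset, the share of all regions called by the same rule was not counted. The shares given above are for the full groups and do not apply to those counts.

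Set against the strongest peaks, the full lists, also when limited to −log10 q of at least 2, gave for doxycycline in GM 1.75 in place of 0 peaks around Mir206 and Mir133b, 2.25 in place of −0.25 around Mir1a-1 and Mir133a-2 and 0.50 in place of 0 around Mir133a-1 and Mir1a-2. For doxycycline in DM they gave 3 and 1.33 in place of 0 for the latter pairs, and for differentiation with doxycycline −0.92 and 0.83 in place of 0. All-or-none regions went from 0 to 1 for doxycycline in GM, doxycycline in DM and differentiation with doxycycline.

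Ranking by fold enrichment gave around Mir206 and Mir133b 0.50 for doxycycline in GM and −0.42 in place of 0.33 for differentiation with doxycycline, and around Mir1a-1 and Mir133a-2 0 and −0.25. Windows of 10 kb gave 0 around Mir1a-1 and Mir133a-2 for doxycycline in GM and differentiation without it. The replicate block (exact sign-flip test, smallest p 0.125 for 4 pairs and 0.25 for 3) could not bring an adjusted p below 0.05. It gave 0 around Mir1a-1 and Mir133a-2 for differentiation without doxycycline. For differentiation with doxycycline, 2 shared regions at the members were higher in every pair, in place of 0 without overlap. How many of all shared regions were higher in every pair was not counted. The median log2 difference of all regions shared in that comparison was 0.20. In the full lists the blocked doxycycline difference around Mir206 and Mir133b was 1.75 in GM (exact p = 0.125) and 2.67 in DM (exact p = 0.25).

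Within replicates 1 and 2, where each DM arm held 1 library, the doxycycline difference around Mir206 and Mir133b in GM was 0.50, all-or-none regions were 2 for doxycycline in DM and 1 for differentiation with doxycycline, and 3 shared regions were higher and 1 lower for the latter. Within replicates 3 and 4 the values around Mir206 and Mir133b were −0.50 for doxycycline in GM and 0 for differentiation with doxycycline, those around Mir1a-1 and Mir133a-2 were 0 for doxycycline in GM and differentiation without it, and 1 shared region each was higher for doxycycline in DM and for differentiation with it.

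Leaving out 1 library at a time gave −0.33 (without GM no dox replicate 1) to 0.33 (without GM no dox replicate 3) around Mir206 and Mir133b for doxycycline in GM, and a lowest value of 0 for differentiation with doxycycline (without DM +dox replicate 2, highest 0.50). Around Mir1a-1 and Mir133a-2, both doxycycline in GM and differentiation without it ran from −0.33 to 0, the latter value without GM no dox replicate 1. For doxycycline in DM, all-or-none regions ran from 0 to 1 (without DM no dox replicate 3) and shared regions without overlap from 0 to 1 (without DM no dox replicate 2).

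For the full lists the same changes of libraries were chosen after seeing the data. With all 16 libraries, differentiation with doxycycline around Mir206 and Mir133b was −0.25 in place of 0.42, and all-or-none regions for doxycycline in DM went from 1 to 0. Within replicates 1 and 2, again with 1 library in each DM arm, so that a region held by that library alone counts as all-or-none, Mir133a-1 and Mir1a-2 gave 0 for doxycycline in DM and −0.50 for differentiation with doxycycline, and all-or-none regions were 4 for doxycycline in GM, 6 in DM, 1 lower for differentiation without doxycycline and 1 higher and 3 lower with it. Within replicates 3 and 4, Mir1a-1 and Mir133a-2 gave 0.50 for differentiation with doxycycline in place of −0.92, and all-or-none regions for doxycycline in DM were 3. Leaving out 1 library, all-or-none regions ran from 1 to 2 for doxycycline in GM (2 without GM +dox replicate 3) and from 1 to 3 in DM (3 without DM no dox replicate 4 or DM +dox replicate 2, and 2 without DM +dox replicate 4), and differentiation without doxycycline around Mir206 and Mir133b ran from −1 to 0, the latter without DM no dox replicate 2. The doxycycline difference around Mir206 and Mir133b ran from 1.25 to 1.92 in GM and from 2.17 to 3.17 in DM.

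A peak list records only what passed the caller's threshold, so the absence of a peak does not show that no fragments lay there.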
